A study of Homo sapiens with 6 samples.

Results

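Fibronectin, the thrombospondins and a set of matricellular proteins were followed after knockdown of TAZ in the fibroblast line HFL-1, which derives from human fetal lung. The 10 genes were taken by name from the table of 23355 gene symbols: FN1, THBS1, THBS2, THBS3, TNC, POSTN, SPARC, TGFBI, SPP1 and CCDC80. The cells carried no labelled modification and received, by lipid transfection, either the control siRNA (siNTC) or 1 of 2 siRNAs against TAZ (siTAZ #1 or siTAZ #2). Total RNA was collected at 48 h, and each of the 3 groups had 2 libraries, described as biological replicates, so that 6 libraries were read in all. All libraries came from this single cell line, the knockdown was transient, and no untransfected cells are among the samples. Levels are given as CPM, which relates each count to the TMM-normalized size of its library. FDR stands for the p-value of the edgeR quasi-likelihood test adjusted by Benjamini-Hochberg over the 14053 genes tested, with a threshold of 0.05.

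Fibronectin is secreted as a dimer that cells pull into fibrils through integrins, and these fibrils form an early scaffold for collagen in wounds and in fibrotic lung. Matricellular proteins are secreted into the same matrix but mostly act on cells, by binding receptors, growth factors and proteases, and many of them are raised in healing and scarring tissue. TAZ (gene symbol WWTR1) is a transcriptional coactivator that lacks a DNA-binding domain of its own and acts largely through TEAD factors, often at sites near those of AP-1.

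The libraries held 15648055 to 32078188 counts. WWTR1 stood at 132 and 131 CPM in the siNTC libraries, at 26.4 and 28.4 CPM with siTAZ #1, and at 46.1 and 43.1 CPM with siTAZ #2. It fell by 2.26 on the log2 scale with siTAZ #1 (SE 0.1, FDR 0.00062) and by 1.56 with siTAZ #2 (SE 0.1, FDR 0.00068), and was lower with siTAZ #1 than with siTAZ #2 (FDR 0.005). In siTAZ #1 replicate 2, genes from RANGAP1 on chromosome 22 through X and Y have almost no counts. None of the 10 genes lies there, but the missing counts enter the spread that the test estimates over all genes, so values without that library are given where they change a call of the 10 genes. All 9 fibroblast markers examined were above 1 CPM in each library, with a summed level of 34878 and 34966 CPM with siNTC, 24049 and 23174 CPM with siTAZ #1, and 27180 and 28939 CPM with siTAZ #2. The summed levels of other cell types were far lower, at 41.6 to 64.9 CPM for 8 epithelial markers, 26.7 to 47.4 CPM for 6 endothelial markers, 38.3 to 75.9 CPM for 6 leukocyte markers and 6.97 to 14.9 CPM for 4 mesothelial markers. Most of the fibroblast sum was COL1A1, COL1A2, COL3A1 and VIM. Single fibroblast markers went both ways. With siTAZ #1, 2 of the 9 were higher and 4 lower, beside 20.6% of all genes called. With siTAZ #2, 2 were higher and 5 lower, beside 28.5%. PDGFRA, among the higher ones, rose by 1.72 on the log2 scale with siTAZ #1 (FDR 0.00084). LUM, among the lower ones, fell by 0.54 with siTAZ #1 (FDR 0.027) and by 1.92 with siTAZ #2 (FDR 0.00066). Most of the epithelial sum was KRT18, most of the endothelial sum TEK and most of the leukocyte sum CD68, while the leukocyte gene PTPRC had 0 to 3 counts in a library. The part of these marker levels in the results that follow was not tested.

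In the siNTC cells the 10 genes covered a wide range of levels, from some of the most abundant transcripts to one near the limit of detection. Divided by the length of the reference transcript, TGFBI was first with 1190 ± 50.2 CPM per kb (SD, n = 2), followed by SPARC with 1010 ± 51.7 and FN1 with 968 ± 0.157 CPM per kb. SPARC and FN1 lay next to each other, with a gap no larger than the SD of SPARC. THBS1 and TNC could not be separated, at 266 ± 5.44 and 266 ± 15.7 CPM per kb. POSTN had 148 ± 1.84 CPM per kb, CCDC80 28.4 ± 2.9, THBS3 13.3 ± 1.62, THBS2 7.54 ± 0.831 and SPP1 0.79 ± 0.37 CPM per kb, and the libraries of neighbours in this order did not overlap. The value for CCDC80 rests on a long reference transcript of 12301 bases, and counts were made per gene, so splice forms such as those of fibronectin are not distinguished.

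**Figure D1:**
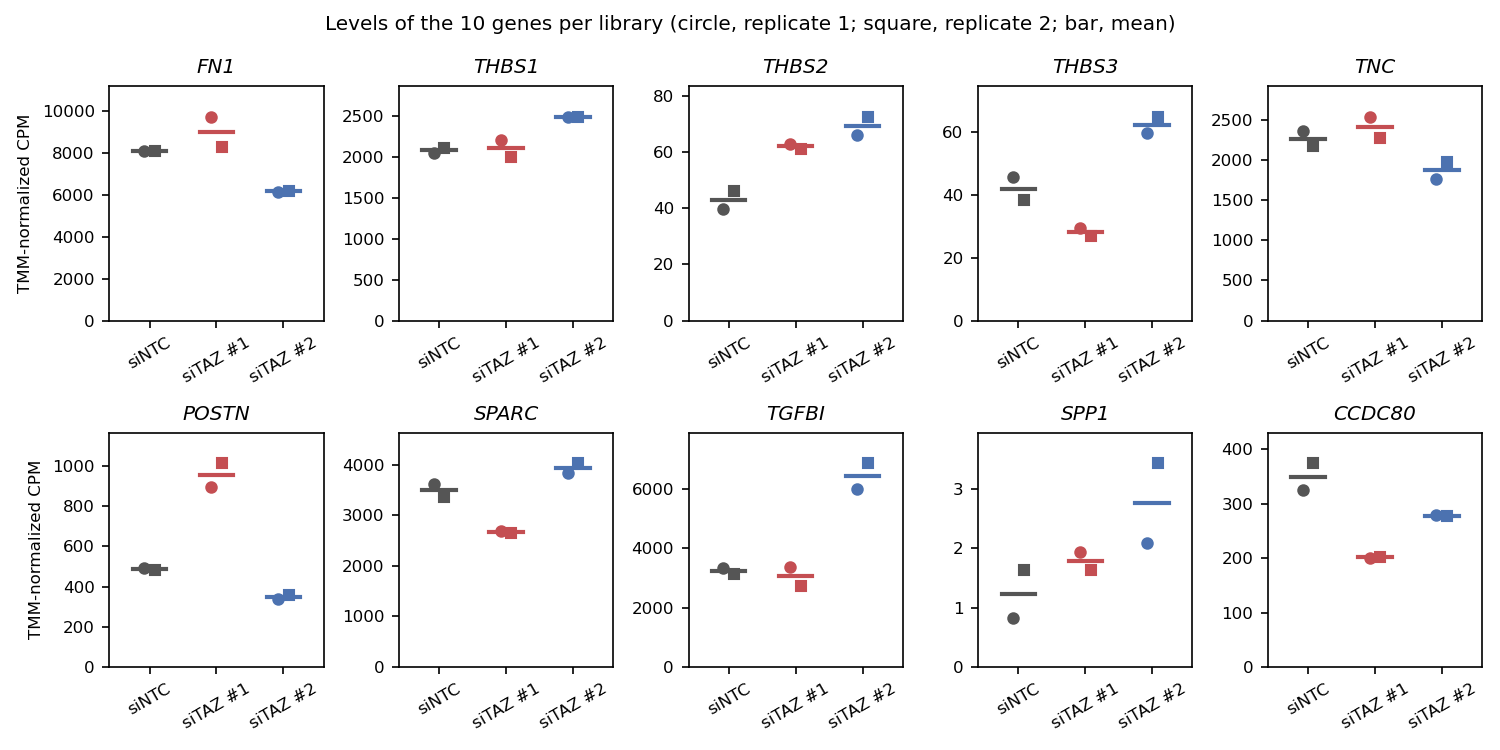
Level of each of the 10 genes in every library, in TMM-normalized CPM on an axis that starts at 0, with 1 panel per gene, circles for replicate 1, squares for replicate 2 and a bar at the mean of each group. POSTN is highest in the siTAZ #1 libraries (894 and 1015 CPM) and TGFBI in the siTAZ #2 libraries (5983 and 6864 CPM).

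The first question of the design is which genes change when TAZ is lowered, and each siRNA was compared with siNTC. With siTAZ #1, 5 of the 10 genes passed, with POSTN and THBS2 higher and CCDC80, THBS3 and SPARC lower. Over all genes tested, 20.6% passed in this comparison, 10.8% higher and 9.78% lower. With siTAZ #2, 6 of the 10 passed, with TGFBI, THBS2 and THBS3 higher and POSTN, FN1 and CCDC80 lower. Over all genes tested, 28.5% passed in that comparison, 14.1% higher and 14.4% lower. For each siRNA, fewer of the 10 genes and fewer of all genes passed when a siNTC or siTAZ #2 library was left out. More of both passed when a siTAZ #1 library was left out. Each such fit leaves a group with a single library. With all libraries kept and the RANGAP1 to Y genes left out of the fit, more of all genes passed with each siRNA. Of the 10 genes, 5 then passed with siTAZ #1 and 8 with siTAZ #2. In the libraries themselves, the ranges of siTAZ #1 and siNTC did not overlap for 6 of the 10 genes, beside 64.3% of all genes tested, and those of siTAZ #2 and siNTC for 10 of 10, beside 71.4%. The median log2 fold change of the 10 genes was 0.05 with siTAZ #1 and 0.22 with siTAZ #2, beside 0.02 and 0.01 over all genes tested. Both comparisons use the same siNTC libraries. In these cultures, fewer cells that express a gene and less of its RNA per cell cannot be told apart.

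The direct comparison of the siRNAs asks whether both gave the same result, and the number of these genes that differed depended on the test. FN1 and POSTN were higher with siTAZ #1, and THBS3, SPARC, TGFBI and CCDC80 were lower, which makes 6 of the 10 genes with an FDR under the threshold, beside 28.6% of all genes tested. The edgeR exact test on the 4 libraries compared called 3 of the 10, and 1498 of all genes. The quasi-likelihood fit of those 4 libraries called 5 of the 10. The ranges of the siRNAs did not overlap for 10 of the 10, beside 65.6%. POSTN and THBS3 passed against siNTC in opposite directions with the 2 siRNAs, a pattern held by 1.52% of all genes tested. CCDC80 was lower with both siRNAs, as were 3.74% of the genes tested, and THBS2 was higher with both, as were 5.49%. THBS1, TNC and SPP1 passed with neither.

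**Figure D2:**
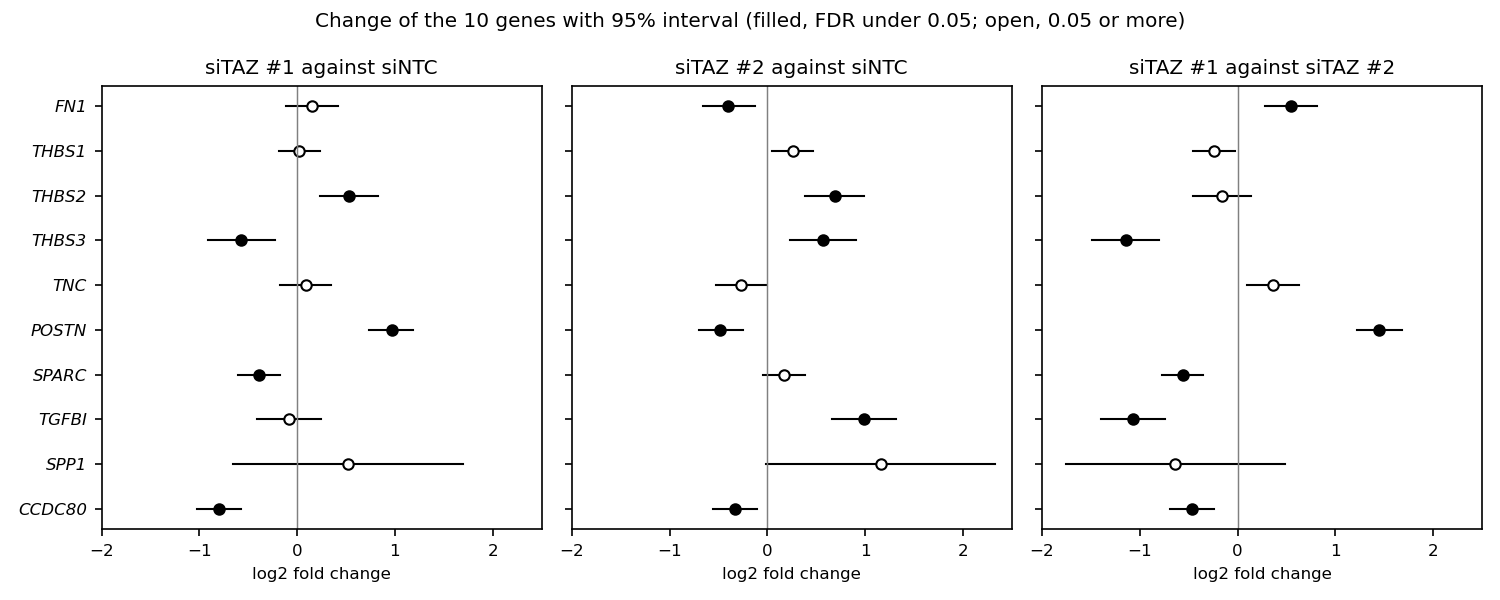
Log2 fold change of each of the 10 genes in 3 panels, for siTAZ #1 against siNTC, siTAZ #2 against siNTC and siTAZ #1 against siTAZ #2, with bars for the 95% interval and filled points where the FDR is under 0.05. POSTN (0.97 and -0.48) and THBS3 (-0.57 and 0.57) lie on opposite sides of 0, while CCDC80 is below 0 and THBS2 above 0 with both siRNAs.

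FN1, on chromosome 2 (GRCh37 chr2:216225163-216300796, minus strand), encodes fibronectin and had the most counts of the 10 genes in every library but siTAZ #2 replicate 2, where TGFBI had more. It had 8124 and 8122 CPM with siNTC, 9753 and 8309 CPM with siTAZ #1, and 6169 and 6174 CPM with siTAZ #2. The siTAZ #1 libraries were both above the siNTC libraries but lay far apart from each other, while both siTAZ #2 libraries were below. With siTAZ #1 the log2 fold change was 0.15 (SE 0.11, 95% interval -0.11 to 0.42, FDR 0.36). Without siTAZ #1 replicate 2 it was 0.26 and passed (FDR 0.0074), and without siTAZ #1 replicate 1 it was 0.03 (FDR 0.76). With siTAZ #2 FN1 fell by 0.4 on the log2 scale (SE 0.11, FDR 0.041), which is 1.32-fold lower. This call was lost when any siNTC or siTAZ #2 library was left out, at values of -0.42 to -0.4. It was also lost with an offset for GC content (FDR 0.1) or transcript length (FDR 0.067). With replicate number added to the model the FDR was 0.081. Between the siRNAs FN1 was higher with siTAZ #1 by 0.55 (SE 0.11, FDR 0.015), and without any 1 of the siNTC or siTAZ #2 libraries the FDR was 0.06 to 0.099.

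The thrombospondins are large calcium-binding glycoproteins. THBS1 and THBS2 form trimers, bind the receptors CD36 and CD47 and restrain vessel growth, and THBS1 also activates latent TGF-β. THBS3 belongs to the branch of the family that forms pentamers.

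THBS1 (chr15:39873280-39891667, plus strand) was by far the most abundant of them, with 2044 and 2104 CPM with siNTC, 2203 and 1995 CPM with siTAZ #1, and 2487 and 2485 CPM with siTAZ #2. The siTAZ #1 libraries lay on either side of the siNTC libraries, and the siTAZ #2 libraries lay above all others. With siTAZ #1 the log2 fold change was 0.02 (SE 0.09, 95% interval -0.19 to 0.23, FDR 0.9), and its sign turned in several settings. With siTAZ #2 it was 0.26 (SE 0.09, 95% interval 0.05 to 0.47, FDR 0.07). Leaving out siTAZ #1 replicate 1 or replicate 2 brought that value past the threshold (FDR 0.0041 and 0.0037), as happened when the RANGAP1 to Y genes were left out of the fit (FDR 0.032). The difference between the siRNAs was -0.24 (FDR 0.085), or -0.31 without siTAZ #1 replicate 1. With the RANGAP1 to Y genes left out of the fit it was -0.26 and passed (FDR 0.032). FSIP1, which overlaps THBS1 on the opposite strand, had at most 2.54 CPM in any library.

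THBS2 (chr6:169615875-169654145, minus strand) was low with siNTC, at 39.6 and 46.3 CPM, and reached 63.1 and 61.1 CPM with siTAZ #1 and 66.3 and 72.7 CPM with siTAZ #2. All 4 siTAZ libraries were above both siNTC libraries. THBS2 rose by 0.53 with siTAZ #1 (SE 0.12, FDR 0.032) and by 0.69 with siTAZ #2 (SE 0.12, FDR 0.011) on the log2 scale. The siRNAs differed by -0.16 (95% interval -0.46 to 0.14, FDR 0.37). The siTAZ #1 call was lost without any 1 of the siNTC or siTAZ #2 libraries, at values of 0.41 to 0.64. The siTAZ #2 call was lost without siNTC replicate 1, at 0.57, or siTAZ #2 replicate 2, at 0.6. The edgeR exact test on the 4 libraries compared also lost the siTAZ #1 call (FDR 0.49). The quasi-likelihood fit of those 4 libraries gave it an FDR of 0.065, as did a model with replicate number added. With no filter on low counts the siTAZ #1 FDR was 0.051. The count of THBS1 per count of THBS2 was 51.6 and 45.4 with siNTC, 34.9 and 32.7 with siTAZ #1 and 37.5 and 34.2 with siTAZ #2.

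THBS3 (chr1:155165379-155178842, minus strand) moved apart with the 2 siRNAs. It had 45.6 and 38.4 CPM with siNTC, 29.5 and 27 CPM with siTAZ #1, and 59.6 and 64.9 CPM with siTAZ #2, and none of the 3 groups overlapped. It fell by 0.57 on the log2 scale with siTAZ #1 (SE 0.14, FDR 0.037) and rose by 0.57 with siTAZ #2 (SE 0.14, FDR 0.03). The difference between the siRNAs was -1.14 (SE 0.14, 95% interval -1.49 to -0.8, FDR 0.0033). Against siNTC, each call was lost without any 1 of the siNTC or siTAZ #2 libraries. The values were then -0.7 to -0.45 for siTAZ #1 and 0.43 to 0.68 for siTAZ #2. The siTAZ #1 call was also lost in the edgeR exact test on the 4 libraries compared (FDR 0.43) and the quasi-likelihood fit of those libraries (FDR 0.07). With replicate number added to the model the FDR was 0.08 for siTAZ #1 and 0.063 for siTAZ #2. The gene overlaps MTX1, a mitochondrial import gene on the opposite strand, and the strand setting of the counting is not given in the sources used here. MTX1 had 45.8 and 39.1 CPM with siNTC, 26.3 and 26.2 CPM with siTAZ #1, and 40.3 and 46 CPM with siTAZ #2. It fell by 0.69 with siTAZ #1 (FDR 0.021), and the siTAZ #2 value was 0.02 (FDR 0.93). Its part in the THBS3 values was not tested. THBS2 per THBS3 was 0.869 and 1.21 with siNTC, 2.14 and 2.27 with siTAZ #1 and 1.11 and 1.12 with siTAZ #2.

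TNC (chr9:117781854-117880486, minus strand) encodes tenascin-C, which loosens the grip of cells on fibronectin and is deposited in wounds and fibroblastic foci. It had 2356 and 2167 CPM with siNTC, 2539 and 2276 CPM with siTAZ #1, and 1761 and 1979 CPM with siTAZ #2. The siTAZ #2 libraries were below the other 4, and the other 2 groups overlapped. The log2 fold change was 0.09 with siTAZ #1 (95% interval -0.17 to 0.35, FDR 0.59) and -0.27 with siTAZ #2 (95% interval -0.53 to -0.01, FDR 0.11). Without siTAZ #1 replicate 1 or replicate 2, the siTAZ #2 value was -0.28 and passed (FDR 0.0051 and 0.0049). The siRNAs differed by 0.36 (SE 0.11), at the threshold with an FDR of 0.05 that did not pass. With the RANGAP1 to Y genes left out of the fit, TNC passed with siTAZ #2 (-0.27, FDR 0.039) and between the siRNAs (0.35, FDR 0.012). Without siTAZ #1 replicate 1 the difference was 0.29 (FDR 0.016), and without replicate 2 it was 0.44 (FDR 0.00061). TNC kept close to FN1, with 0.26 to 0.321 counts per count of FN1 over the 6 libraries.

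POSTN and TGFBI encode periostin and the TGF-β-induced protein, the fasciclin-domain proteins of the set, which bind integrins and collagen and are both classic products of TGF-β-treated cells. Of the 10 genes, this pair had the largest changes past the threshold against siNTC, each with a different siRNA.

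POSTN (chr13:38136720-38172981, minus strand) had 492 and 483 CPM with siNTC, 894 and 1015 CPM with siTAZ #1, and 339 and 360 CPM with siTAZ #2, so that siTAZ #1 stood highest and siTAZ #2 lowest with no overlap. It rose 1.96-fold with siTAZ #1 (log2 fold change 0.97, SE 0.09, FDR 0.0024), a call that held in all 18 alternatives. It fell by 0.48 on the log2 scale with siTAZ #2 (SE 0.09, FDR 0.014), a call lost without any 1 of the siNTC or siTAZ #2 libraries (FDR 0.054 to 0.091). The difference between the siRNAs was 1.45 (SE 0.09, 95% interval 1.22 to 1.68, FDR 0.00072), the largest among the 10 genes.

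TGFBI (chr5:135364677-135399507, plus strand) had 3332 and 3139 CPM with siNTC, 3368 and 2743 CPM with siTAZ #1, and 5983 and 6864 CPM with siTAZ #2. The siTAZ #2 libraries stood above all others, and the siTAZ #1 libraries fell on both sides of the siNTC libraries. It rose 1.99-fold with siTAZ #2 (log2 fold change 0.99, SE 0.13, FDR 0.0046), with an FDR of 0.053 without siNTC replicate 1 and 0.063 without siNTC replicate 2. With siTAZ #1 the log2 fold change was -0.08 (SE 0.13, 95% interval -0.41 to 0.24, FDR 0.7). It was -0.24 without siTAZ #1 replicate 1 (FDR 0.037) and 0.06 without siTAZ #1 replicate 2 (FDR 0.69), so its direction rested on which library was kept. The difference between the siRNAs was -1.07 (SE 0.13, FDR 0.0035). TGFBI per POSTN was 6.77 and 6.5 with siNTC, 3.77 and 2.7 with siTAZ #1, and 17.6 and 19 with siTAZ #2.

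SPARC (chr5:151040657-151066536, minus strand) encodes a collagen-binding protein that assists collagen handling and fibril assembly. It had 3621 and 3368 CPM with siNTC, 2689 and 2643 CPM with siTAZ #1, and 3832 and 4032 CPM with siTAZ #2, and the groups did not overlap. It fell by 0.39 on the log2 scale with siTAZ #1 (SE 0.09, FDR 0.028). That call was lost without any 1 of the siNTC or siTAZ #2 libraries, at values of -0.45 to -0.35. It was also lost in the edgeR exact test on the 4 libraries compared (FDR 0.53) and the quasi-likelihood fit of those libraries (FDR 0.06). With replicate number added to the model the FDR was 0.077. With the RANGAP1 to Y genes left out of the fit and all libraries kept, the value was -0.41 (FDR 0.002). Without siTAZ #1 replicate 2 it was -0.38. With siTAZ #2 the log2 fold change was 0.17 (95% interval -0.04 to 0.38, FDR 0.19), or 0.17 without siTAZ #1 replicate 2 (FDR 0.048) and 0.3 with an offset for GC content (FDR 0.034). The difference between the siRNAs was -0.56 (SE 0.09, FDR 0.0066), with an FDR of 0.061 without siTAZ #2 replicate 2.

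CCDC80 (chr3:112315644-112368377, minus strand) encodes a secreted matrix protein that promotes cell adhesion. It was the only one of the 10 genes that fell with both siRNAs, from 325 and 375 CPM with siNTC to 201 and 202 CPM with siTAZ #1 and 279 and 278 CPM with siTAZ #2. Both siTAZ #1 libraries were below the siTAZ #2 libraries, which were below those of siNTC. CCDC80 was 1.74-fold lower with siTAZ #1 (log2 fold change -0.8, SE 0.09, FDR 0.0042), a call lost of all alternatives only in the edgeR exact test on the 4 libraries compared (FDR 0.062). It fell by 0.33 on the log2 scale with siTAZ #2 (SE 0.09, FDR 0.043). That siTAZ #2 call was lost without any 1 of the siNTC or siTAZ #2 libraries, at values of -0.45 to -0.24. It was also lost with library totals in place of TMM (FDR 0.061) and with an offset for GC content (FDR 0.087). With replicate number added to the model the FDR was 0.082. The difference between the siRNAs was -0.47 (SE 0.09, FDR 0.015). Without siTAZ #2 replicate 1 its FDR was 0.073, and without siTAZ #2 replicate 2 it was 0.079.

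SPP1 (chr4:88896819-88904684, plus strand) encodes osteopontin, an integrin and CD44 ligand that macrophages make in large amounts in fibrotic lung. It had 13 and 26 counts with siNTC, 30 and 53 counts with siTAZ #1, and 45 and 57 counts with siTAZ #2. In CPM these are 0.824 and 1.64, 1.94 and 1.63, and 2.1 and 3.44. The log2 fold change was 0.52 with siTAZ #1 (SE 0.48, 95% interval -0.66 to 1.7, FDR 0.49) and 1.16 with siTAZ #2 (SE 0.48, 95% interval -0.01 to 2.33, FDR 0.12). The siTAZ #1 libraries overlapped with those of siNTC and the siTAZ #2 libraries lay above both, but at this depth no difference was detectable by the test. Leaving out siNTC replicate 1 or replicate 2 gave a siTAZ #1 value of 0.1 or 1.09. The siTAZ #2 value was 0.73 without siNTC replicate 1, 0.74 without siTAZ #2 replicate 2 and 1.72 without siNTC replicate 2.

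Summed over the 10 genes, the level moved little while its makeup changed. The 10 genes took 2.01% and 1.94% of all counts with siNTC, 2.15% and 1.96% with siTAZ #1 and 2.14% and 2.25% with siTAZ #2. FN1 supplied 39.9% and 40.9% of the sum with siNTC, 44.9% and 43.1% with siTAZ #1, and 29.4% and 27.7% with siTAZ #2. TGFBI supplied 16.3% and 15.8% with siNTC, 15.5% and 14.2% with siTAZ #1, and 28.5% and 30.8% with siTAZ #2. With siTAZ #2 the counts of TGFBI thus came to 0.97 and 1.11 per count of FN1, against 0.33 to 0.41 in the other 4 libraries.

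**Figure D3:**
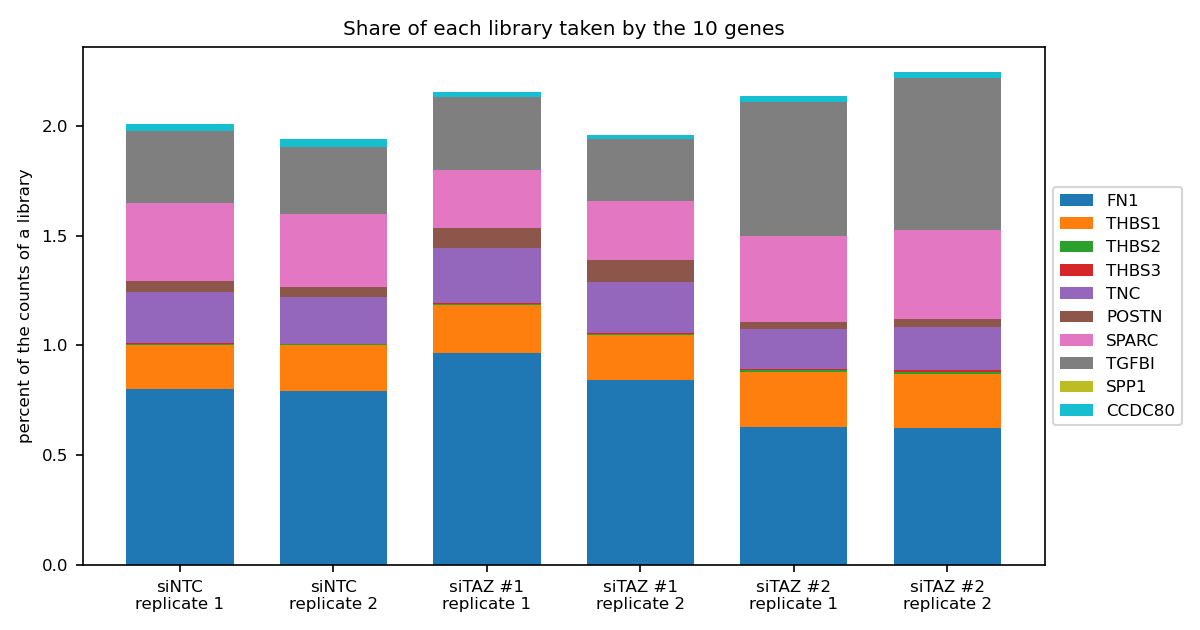
Share of the counts of each of the 6 libraries taken by the 10 genes, in percent, as 1 stacked bar per library with 1 colour per gene. The bars reach 1.94% to 2.25%. Compared with the other bars, the siTAZ #2 bars hold a smaller part of FN1 (27.7% to 29.4% of the bar) and a larger part of TGFBI (28.5% to 30.8%).

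Because TAZ acts through TEAD factors, the 300 bases around the RefSeq start sites (GRCh38.p14, 250 bases before the start to 50 after) were searched for the TEAD core GGAATG, for the AP-1 motif TGANTCA and for the CArG box of serum response factor, on both strands. There were 11 such promoters for the 10 genes. GGAATG was found in 3 of 11 (THBS1, THBS2 and SPARC), beside 14.0% of 35116 promoters of this length, and TGANTCA in 1 of 11 (POSTN), beside 7.71%. The CArG box was found in 0 of 11, beside 1.29%. Over the 14319 promoters of the genes tested, the shares were 11.8% for GGAATG, 5.34% for TGANTCA and 1.11% for the CArG box. For each of the 10 genes with a match, the window of 30 bases that holds it is shown. It is given on the strand of the gene, with the matching letters in capitals. CATTCC is GGAATG read from the other strand.
THBS1: gaggaatccccaGGAATGcgagcgcccctt
THBS2: tgatgtCATTCCttcgaaGGAATGaattaa
SPARC: ctaaacccctccaCATTCCcgcggtccttc
POSTN: ttaaacatgcagTGAGTCAattgttcatat
The THBS1 window is chr15:39581021-39581050 (plus strand), with the match 46 to 41 bases before the start. The THBS2 window, chr6:169253926-169253955 (minus strand), holds 2 matches between 103 and 86 bases before the start, one on each strand. The SPARC window is chr5:151686916-151686945 (minus strand), with the match 17 to 12 bases before the start, and the POSTN window is chr13:37598971-37599000 (minus strand), with the match 220 to 214 bases before it. In the main test of the genes with GGAATG, THBS2 was higher with both siRNAs, SPARC was lower with siTAZ #1 and THBS1 passed with neither. A match in the letters is a description and does not show that a factor binds there.

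Of 18 relatives of the 10 genes (other thrombospondins, tenascins, SPARC-family and bone matrix glycoproteins, vitronectin and the SRPX proteins), 9 had enough counts to be tested. With siTAZ #1, 1 of the 9 was higher and 2 were lower, beside 20.6% of all genes called, and the median over the 9 was -0.61 on the log2 scale. With siTAZ #2, 2 were higher and 2 lower, beside 28.5% of all genes called, and this median was 0.27. Both medians are the value of SRPX, which like SRPX2 lies among the genes with almost no counts in siTAZ #1 replicate 2. Over the other 7 relatives the medians were -0.38 and -0.31, so the siTAZ #2 median changed sign. SRPX had 102 and 107 CPM with siNTC, and 137 and 0.583 CPM in the siTAZ #1 libraries. Without siTAZ #1 replicate 2, SRPX passed with siTAZ #1 (0.39, FDR 0.025) and with siTAZ #2 (0.26, FDR 0.041), and SRPX2 passed with siTAZ #2 (1.04, FDR 4.2e-07). More relatives passed with siTAZ #1 when siTAZ #1 replicate 1 was left out. That fit keeps for siTAZ #1 only the library with almost no counts for SRPX and SRPX2. With siTAZ #2, fewer relatives passed without a siNTC or siTAZ #2 library, as did fewer of all genes tested. FSTL1, a secreted SPARC-family glycoprotein, had 1663 and 1739 CPM with siNTC, 744 and 606 CPM with siTAZ #1 and 985 and 1035 CPM with siTAZ #2. It fell by 1.33 (FDR 0.0019) and by 0.75 (FDR 0.0068) on the log2 scale. It is among the genes that the study picked from these libraries as lowered by both siRNAs, so its direction is not independent evidence. SMOC1, another SPARC relative, rose by 1.31 with each siRNA (FDR 0.037 and 0.03). SPOCK1, a SPARC-related proteoglycan, moved apart, with 24.7 and 28.8 CPM with siNTC, 9.23 and 8.8 CPM with siTAZ #1 and 58.9 and 62 CPM with siTAZ #2. It fell by 1.57 with siTAZ #1 (FDR 0.0017) and rose by 1.18 with siTAZ #2 (FDR 0.0025). THBS4 was near the limit of detection with 15 and 16 counts with siNTC, 7 and 7 with siTAZ #1 (log2 fold change -1.63, FDR 0.14), and 1 and 2 with siTAZ #2 (log2 fold change -3.51, FDR 0.025). The calls of SMOC1 were lost without either siNTC library (FDR 0.12 to 0.19) and, for siTAZ #2, without siTAZ #2 replicate 2 (FDR 0.13). The siTAZ #2 call of FSTL1 was lost without siNTC replicate 1, siNTC replicate 2 or siTAZ #2 replicate 1 (FDR 0.053 to 0.063), and that of THBS4 without any 1 of the siNTC or siTAZ #2 libraries (FDR 0.084 to 0.14).

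Of 21 receptors and cell-surface partners of these proteins, 18 were tested. With siTAZ #1, 7 were higher and 5 lower (median log2 fold change 0.1), and with siTAZ #2, 8 were higher and 3 lower (median 0.46), beside 20.6% and 28.5% of all genes called. Without either siNTC library, fewer receptors passed with each siRNA, as did fewer of all genes tested. Without siTAZ #1 replicate 2, ITGA4 (-0.44, FDR 0.032) and ITGB3 (0.42, FDR 0.019) also passed with siTAZ #1, and ITGA4 (-0.41, FDR 0.0066), ITGB1 (-0.27, FDR 0.0041), CALR (0.3, FDR 0.0035) and ITGA8 with siTAZ #2. The integrin chains ITGAV and ITGB5, which pair to bind vitronectin and other RGD-bearing ligands, rose with both siRNAs. ITGAV had 197 and 192 CPM with siNTC, 267 and 301 CPM with siTAZ #1 and 439 and 459 CPM with siTAZ #2, a rise of 0.55 (FDR 0.011, or 0.24 with FDR 0.22 under an offset for GC content) and of 1.21 (FDR 0.00087). ITGB5 rose by 1.31 (FDR 0.00086) and by 2.04 (FDR 0.00037). CACNA2D1, a calcium channel subunit that thrombospondins bind, rose by 1.4 (FDR 0.0023) and by 1.69 (FDR 0.00094), and LRP1, a receptor that takes up thrombospondins, by 0.35 (FDR 0.042) and by 0.63 (FDR 0.0056). EGFR, which EGF-like repeats of tenascin-C can engage, fell by 0.33 (FDR 0.042) and by 0.44 (FDR 0.013). Without either siNTC library, the FDR was 0.091 to 0.1 for ITGAV with siTAZ #1, 0.064 to 0.23 for LRP1 with either siRNA and 0.068 to 0.22 for EGFR with either siRNA. Without either siTAZ #2 library it was 0.074 to 0.086 for LRP1 with siTAZ #1 and 0.054 to 0.079 for EGFR with either siRNA, and without siTAZ #1 replicate 2 it was 0.095 for EGFR with siTAZ #1.

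ITGA5, whose product pairs with that of ITGB1 as the main fibronectin receptor of fibroblasts, changed with 1 siRNA. It had 1094 and 1051 CPM with siNTC, 304 and 264 CPM with siTAZ #1, and 1012 and 1146 CPM with siTAZ #2. The siTAZ #1 libraries were far below the others, and the siTAZ #2 libraries lay around those of siNTC. It fell by 1.92 with siTAZ #1 (FDR 0.00082). The siTAZ #2 value was 0.01 on the log2 scale (95% interval -0.25 to 0.27, FDR 0.96), and the siRNAs differed by -1.93 (FDR 0.00057). ITGA8, which partners ITGB1 in binding fibronectin and osteopontin, had 30 and 21 counts with siNTC, 163 and 388 with siTAZ #1 and 37 and 102 with siTAZ #2, with log2 fold changes of 2.79 (FDR 0.028) and 1.27 (FDR 0.17). CD36, a thrombospondin receptor, had 5 and 7 counts with siNTC, 30 and 109 with siTAZ #1 and 7 and 3 with siTAZ #2. On the log2 scale it changed by 2.79 with siTAZ #1 (FDR 0.02, or 2.33 with FDR 0.095 without siTAZ #1 replicate 2) and the siTAZ #2 value was -0.54 (FDR 0.58). Without either siNTC library, the siTAZ #1 calls of ITGA8 (FDR 0.14 and 0.18) and CD36 (FDR 0.14 and 0.11) were lost, and the siTAZ #2 value of ITGA8 passed when siTAZ #1 replicate 1, siTAZ #1 replicate 2 or siTAZ #2 replicate 1 was left out (FDR 0.039, 0.041 and 0.03), and was 0.07 without siTAZ #2 replicate 2 (FDR 0.92). SDC1, a heparan sulfate proteoglycan that binds fibronectin and thrombospondins, rose by 0.74 with siTAZ #1 (FDR 0.0027) and fell by 0.68 with siTAZ #2 (FDR 0.0023).

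**Figure D4:**
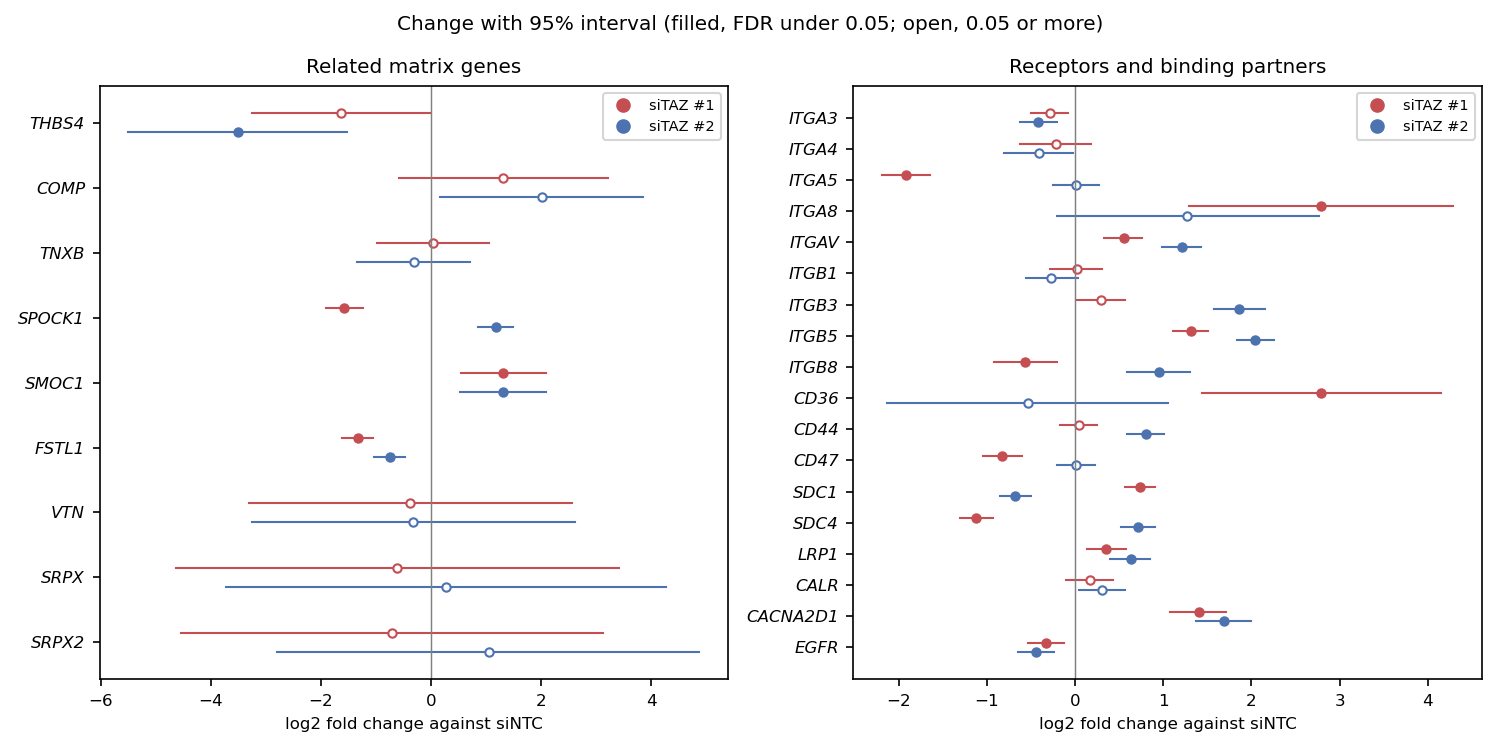
Log2 fold change with siTAZ #1 and with siTAZ #2 against siNTC for the 9 related genes and the 18 receptors tested, with bars for the 95% interval and filled points where the FDR is under 0.05. ITGB5 (1.31 and 2.04) and CACNA2D1 (1.4 and 1.69) are above 0 with both siRNAs, while SPOCK1 (-1.57 and 1.18) and SDC1 (0.74 and -0.68) lie on opposite sides of 0.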

How the data were processed

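RNA-seq was analysed in 6 libraries of HFL-1 cells, in 3 groups of 2 by the transfection label. The values deposited by the authors are raw read counts per gene, not normalized. Reads came from an Ion Proton instrument, TMAP placed them on hg19, and HTSeq (version 0.6.1 in the submitters' processing notes) counted them. The strand setting and counting mode are not given in the sources used here. Of 23368 rows, 13 carry a date in place of a symbol and were left out.

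The filter was filterByExpr and the scaling TMM. A single model of all libraries was fitted in edgeR 4.0.16 (R 4.3.3) and tested by quasi-likelihood, with Benjamini-Hochberg adjustment over 14053 genes and a threshold of FDR 0.05. All 10 members passed the filter. The F statistic of each fold change gave its standard error and 95% interval. With 2 libraries per group, exact permutation of single values cannot reach the threshold, so the model draws its spread from all groups and genes. Alternatives included DESeq2 1.42.0.

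Positions are the gene spans of GENCODE release 44 on GRCh37, and exons and lengths those of its MANE Select transcripts. Of the symbols, 21477 were matched, 1921 of them through a synonym. Promoters are from RefSeq (GRCh38.p14). The members and gene lists were chosen with earlier results of these data known, so list counts are descriptions. Of the related genes and receptors, the text names those under the threshold with the same sign with both siRNAs and, for each siRNA, the lowest and the highest under the threshold. WWTR1 is named as the target, and MTX1, FSIP1, SDC4, ITGB8, CD47, CD44, ITGB1, ITGA4, ITGB3, CALR, SRPX and SRPX2 were named after their values were seen.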

Additional observations from a re-analysis of the deposited data

Results flagged for a closer look

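For 6 of the 10 genes the effect of siTAZ #1 differed from that of siTAZ #2 in the direct edgeR comparison of the siRNAs, which the main text describes one by one. On the log2 scale, siTAZ #1 minus siTAZ #2, the difference was 1.45 for POSTN, 0.55 for FN1, -1.14 for THBS3, -1.07 for TGFBI, -0.56 for SPARC and -0.47 for CCDC80. WWTR1 itself was lower with siTAZ #1 (-0.7), and the part of this gap in the differences was not tested. CCDC80 fell with both siRNAs and further with siTAZ #1, whereas POSTN and THBS3 passed against siNTC in opposite directions.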

How the results depend on the processing

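Over the 30 results of the 10 genes and 537 alternatives, 437 kept direction and side of the threshold, 61 lost the call, 32 gained one and 7 changed sign, and the causes were not tested. The offsets for GC content and transcript length were added after seeing the data.

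The edgeR exact test called 1061 genes and 1 member with siTAZ #1 and 7 receptors, 6424 genes with siTAZ #2, and 1498 genes and 3 members between the siRNAs. The fit of the 4 libraries compared called 2 members with siTAZ #1, and fewer of all genes than the main test. With siTAZ #2 it called 8 members and 6097 genes. Same-numbered libraries did not deviate together (correlations of 0, 0.01 and -0.11 over 14053 genes). These include the RANGAP1 to Y genes, and with 2 libraries per group the values cannot show whether the numbers pair the libraries. With the replicate block, siTAZ #1 had 1691 genes, 2 members and 7 receptors called. In that model siTAZ #2 had 3 members and 2 relatives called, and fewer of all genes than in the main test. A crossed block, added after seeing the data, called 4, 4 and 7 members in the 3 comparisons. Against siNTC it called fewer of all genes than the main test with each siRNA.

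With 1 library left out, the counts ran from 556 to 5100 genes, 2 to 6 members, 2 to 5 relatives and 6 to 13 receptors for siTAZ #1, from 1328 to 6042 genes, 0 to 9 members, 1 to 6 relatives and 7 to 15 receptors for siTAZ #2, and from 1797 to 5659 genes and 3 to 8 members between the siRNAs. The 0 came from edgeR without siNTC replicate 1, where 5 members had an unadjusted p under 0.05. With all libraries, DESeq2 called 8 members with siTAZ #2, and more of all genes than the main test.

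For THBS1 the log2 fold change under siTAZ #1 was -0.01 with upper-quartile scaling and with no filter, 0 without the RANGAP1 to Y genes, -0.04 with the length offset, and -0.06 to 0.09 without a library. For TGFBI with siTAZ #1 it ran from -0.24 to 0.06 without a library, the latter without siTAZ #1 replicate 2. For ITGA5 (siTAZ #2) the change was 0 with DESeq2 and RLE scaling, -0.01 with no filter, -0.02 with the length offset and -0.11 to 0.09 without a library. For SMOC1 between the siRNAs it was -0.03 with upper-quartile scaling, -0.01 with library totals and without the RANGAP1 to Y genes, 0 under a minimum mean count of 50 and under the length offset, and -0.31 to 0.41 without a library. The summed level in siNTC replicate 2 was 19398 CPM with library totals and 19845 CPM with TMM.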

Other observations

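Receptors that were not named in the main text also moved apart with the siRNAs. SDC4, a syndecan that acts beside integrins in adhesion to fibronectin, had 205 and 211 CPM with siNTC, 94.3 and 96.6 CPM with siTAZ #1, and 351 and 327 CPM with siTAZ #2. It fell by 1.12 with siTAZ #1 (FDR 0.001) and rose by 0.71 with siTAZ #2 (FDR 0.0024), the reverse of SDC1. ITGB8, whose product joins that of ITGAV to bind latent TGF-β, had 36.4 and 36.2 CPM with siNTC, 22.8 and 26.1 CPM with siTAZ #1, and 76.5 and 63.5 CPM with siTAZ #2. It fell by 0.57 with siTAZ #1 (FDR 0.042) and rose by 0.95 with siTAZ #2 (FDR 0.0067). SDC4, ITGB8, CD47 and CD44 were named after their values were seen, and their values under other settings are not given here.

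CD47, the thrombospondin receptor, fell by 0.83 with siTAZ #1 (FDR 0.0036), its log2 fold change with siTAZ #2 was 0.01 (FDR 0.96), and the siRNAs differed by -0.84 (FDR 0.0024). CD44, an osteopontin and hyaluronan receptor, rose by 0.8 with siTAZ #2 (FDR 0.0023), and its log2 fold change with siTAZ #1 was 0.04 (FDR 0.79). For ITGB1, the shared partner of ITGA5 and ITGA8, the log2 fold changes were 0.02 with siTAZ #1 (FDR 0.93) and -0.27 with siTAZ #2 (FDR 0.15, or 0.0041 without siTAZ #1 replicate 2).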
